A study of Mus musculus with 3 samples.

Results

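The 9 receptor genes described here are Cxcr2, Cxcr4, Cx3cr1, Ccr1, Ccr2, Fpr1, Fpr2, C5ar1 and Ffar2, which let blood cells sense chemokines, bacterial peptides, a complement fragment and short-chain fatty acids. They are 9 of the 34770 genes and transcripts with a probe on a mouse expression array, and 11 probes measure them. The group was chosen by receptor family and by measured values of these same arrays, so its differences are given as a description, with no test. The cells were HoxA9-Meis1 AML cells, a mouse acute myeloid leukaemia line of the C57Bl/6 strain taken from whole bone marrow and named for a pair of homeobox genes, and all 3 conditions share that line. Cells received 3.4 µM Pyrydopyrazine A2 (A2), or all-trans retinoic acid with 1α-hydroxy-D3 vitamin (RA+D3V) at 10 µM each, or nothing (untreated), for 24 h in SFEM medium. Each condition was measured on 1 array, so no difference below has a replicate check.

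Chemoattractant receptors are G protein-coupled receptors of the cell surface. When a ligand binds, most of them act through inhibitory G proteins to raise calcium and activate phosphoinositide 3-kinase, and the cell moves towards the source. In bone marrow, Cxcr4 holds stem cells and maturing neutrophils in place, Cxcr2 draws neutrophils out into the blood, and Ccr2 does the same for monocytes. Myeloid cells change which of these receptors they carry as they mature.

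The labels of the treated arrays were contradictory. By rank over 62976 spots, the scanner file labelled A2 equalled the column labelled RA+D3V in the authors' deposited value table (Spearman's rho = 1.0), and the scanner file labelled RA+D3V equalled the column labelled A2 (rho = 1.0). Arrays are named below by their scanner labels, and under the value table's labels every value given for A2 would belong to RA+D3V and the reverse. The control column there equalled none of the scanner files (rho = 0.9356 with the untreated array), so it served as a second source of untreated values. The 2 sources differed with an SD of 0.258 on the log2 scale over 17005 genes, and 0.523% of these genes were at least 2-fold apart. Of 59305 spots other than controls, 46.6% were well above background on the A2-labelled array, 46.8% on the RA+D3V-labelled array and 46.0% on the untreated array, and 0 were saturated.

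Levels are log2 processed signals set relative to the 75th percentile of each array, so 0 is the 75th percentile of that array. All 9 receptors were well above background on all 3 arrays by their brightest probe. On the A2-labelled array, 1 of 9 was at least 2-fold higher than in untreated cells (C5ar1), where 7.92% of 17280 genes measured were. In the same comparison 2 of 9 were at least 2-fold lower (Cxcr2 and Cx3cr1), where 6.46% of all genes were. On the RA+D3V-labelled array, 3 of 9 were at least 2-fold higher than in untreated cells (Ffar2, C5ar1 and Cxcr2), where 7.81% of 17281 genes were. There 1 of 9 was at least 2-fold lower (Cx3cr1), where 5.04% of all genes were. Set directly against the RA+D3V-labelled array, the A2-labelled array had 1 of 9 receptors at least 2-fold higher (C5ar1) and 3 of 9 at least 2-fold lower (Ffar2, Cxcr2 and Fpr2). Over 17631 genes those shares were 3.77% and 4.04%. Since measured values helped to choose the 9 genes, nothing is read from these counts.

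The median log2 difference of the 9 receptors was -0.69 for A2 minus untreated, 0.62 for RA+D3V minus untreated and -0.44 for A2 minus RA+D3V. Over all genes measured the medians were -0.03, -0.03 and -0.02. The treated arrays share the untreated array, so these comparisons are not independent of each other. Closest to the 2-fold limit without reaching it were Ffar2 (-0.78) and Fpr1 (-0.76) for A2 minus untreated, and just past it lay C5ar1 (1.07) for A2 minus RA+D3V.

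**Figure D1:**
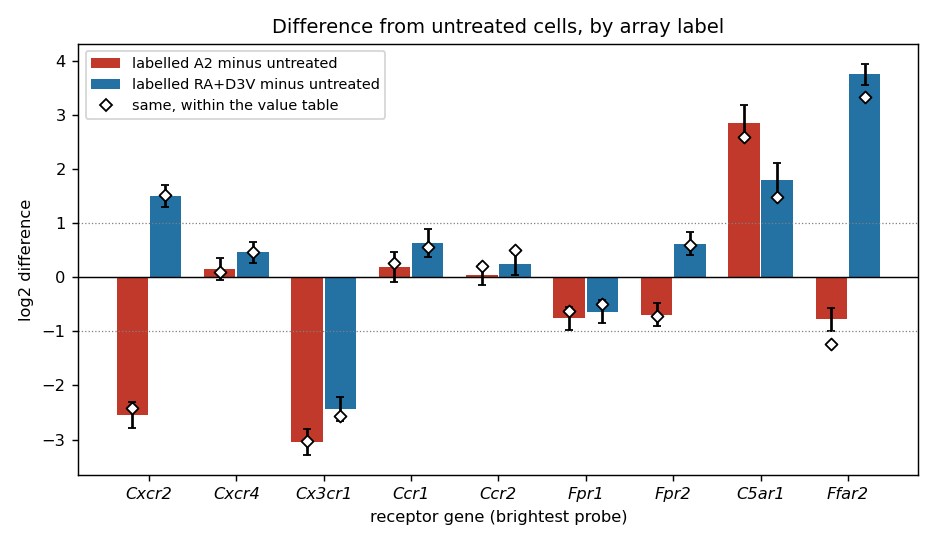
Log2 difference from untreated cells for the brightest probe of each of the 9 receptors (bars; red, A2-labelled array; blue, RA+D3V-labelled array). Error bars are the scanner software's own error of the spots, diamonds the same difference within the value table, and dotted lines mark 2-fold; Cxcr2 and Ffar2 have bars in opposite directions, and both Cx3cr1 bars lie below -2.

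The probes are 60 bases long, and the first 30 bases of those behind the largest differences are shown because a receptor's value here is the brightness of that probe alone. Capitals mark the longest run of alternating G and T in the 30 bases shown.
Cxcr2: aagggtggggagttcGTGTagaagacacag
Ffar2: gggaccaagatggacagggGTGgaagtcaa
C5ar1: GTacagatcaacaccagaagtatcatgcaa
Cx3cr1 probe 1: caagaaTGTcttcatgcattcactgactcc
Cx3cr1 probe 2: cgtgcctagaGTGTGTctatcccacttgta
Cx3cr1 probe 3: ctagaGTGTGTctatcccacttgtaattct
In build mm9 these probes lie at chr1:74206886-74206945 (Cxcr2, forward strand), chr7:31604149-31604208 (Ffar2, reverse strand) and chr7:16832243-16832302 (C5ar1, reverse strand). The Cx3cr1 probes lie on the reverse strand at chr9:119959018-119959077, chr9:119957811-119957870 and chr9:119957806-119957865, and probes 2 and 3 share 55 bases. Exons and untranslated regions were not assigned, since the annotation used is of a later build.

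Runs of G and T are marked because probes with long ones stood apart on these arrays. Among genes whose probe has a run of 8 or more, 56.4% (141 of 250) were at least 2-fold lower on the A2-labelled array than on the untreated array, and 51.6% (130 of 252) on the RA+D3V-labelled array. No receptor probe has such a run. The longest over a whole probe is 6 bases, in Cx3cr1 probes 2 and 3 and in Cxcr4. Of genes with a longest run of 6, 4.63% (22 of 475) were at least 2-fold lower on the A2-labelled array and 3.14% (15 of 477) on the RA+D3V-labelled array. With a run of 7, 8.76% (17 of 194) were lower on each. The shares of all genes were 6.46% and 5.04%. The part of such runs in the receptor values was not tested.

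Cxcr2, the receptor for the CXC chemokines that call neutrophils out of the marrow, differed most between the treated arrays among the CXC receptors. Its log2 level was -2.50 on the A2-labelled array, 1.54 on the RA+D3V-labelled array and 0.04 on the untreated array, from processed signals of 48.5, 846 and 369. The untreated level thus lay between the treated ones. The log2 difference was -2.54 ± 0.24 for A2 minus untreated (5.82-fold lower) and 1.50 ± 0.21 for RA+D3V minus untreated (2.82-fold higher). The ± here and below is the error that the scanner software gives for the spots, which is no replicate error. Between the treated arrays the log2 difference was -4.04 ± 0.24, or 16.4-fold lower on the A2-labelled array, the 11th lowest of 17631 genes. Against the value table's control the log2 differences were -2.41 and 1.52. With another background correction (normexp) they were -1.56 and 1.24. That setting also adds an offset of 50 to every signal, more than the signal of 48.5 on the A2-labelled array. Such an offset shrinks differences of dim spots whatever the background, and its part was not separated.

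Cxcr4, the receptor for the marrow retention signal Cxcl12, differed little. Its log2 level was 1.31 on the A2-labelled array, 1.63 on the RA+D3V-labelled array and 1.16 on the untreated array. The log2 difference from untreated cells was 0.15 ± 0.20 for A2, which is less than the SD between the control sources, and 0.46 ± 0.20 for RA+D3V. Its probe lies at chr1:130485079-130485138 on the reverse strand.

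Cx3cr1, the receptor for fractalkine that marks patrolling monocytes and tissue macrophages, was lower on both treated arrays by all 3 of its probes. By probe 2, the brightest, its log2 level was -2.50 on the A2-labelled array, -1.88 on the RA+D3V-labelled array and 0.55 on the untreated array, from signals of 48.6, 78.9 and 526. The log2 difference from untreated cells was -3.05 ± 0.24 for A2 (8.28-fold lower) and -2.44 ± 0.22 for RA+D3V (5.41-fold lower). These were the 38th lowest of 17280 genes and the 42nd lowest of 17281 genes. Probe 3 gave log2 levels of -2.23 on the A2-labelled array, -2.49 on the RA+D3V-labelled array and 0.40 on the untreated array. Its log2 differences were -2.64 and -2.90, so the order of the treated arrays turned round between probes that share 55 bases, and no order between them is given. Probe 1 was well above background on the untreated array alone, at a log2 level of -2.49. It gives bounds of at least 4.07-fold lower on the A2-labelled array and at least 3.96-fold lower on the RA+D3V-labelled array, each taken against the dimmest signal still well above background there. These bounds hold for the scanner signals, and within the value table the probe 1 log2 differences were -1.38 and -2.95, the first smaller than its bound. The control sources differed by -0.52 for that probe. With normexp the probe 2 differences were -1.97 and -1.76.

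The CC receptors Ccr1, a receptor for Ccl3 and Ccl5 on myeloid cells, and Ccr2, the receptor for Ccl2 that brings monocytes out of the marrow, stayed within 2-fold. Ccr2 had log2 levels of 2.59 on the A2-labelled array, 2.79 on the RA+D3V-labelled array and 2.55 on the untreated array. Its differences from untreated cells, 0.05 ± 0.20 and 0.24 ± 0.20 on the log2 scale, were both under the SD between the control sources. Within the value table they were 0.21 and 0.51. Ccr1 was dim, with signals of 47.3 on the A2-labelled array, 68.1 on the RA+D3V-labelled array and 54.1 on the untreated array. Its log2 differences were 0.19 ± 0.27 for A2 and 0.64 ± 0.26 for RA+D3V, and the second was 0.36 with normexp. The probes lie at chr9:124022948-124023007 on the forward strand (Ccr2) and chr9:123877790-123877849 on the reverse strand (Ccr1).

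**Figure D2:**
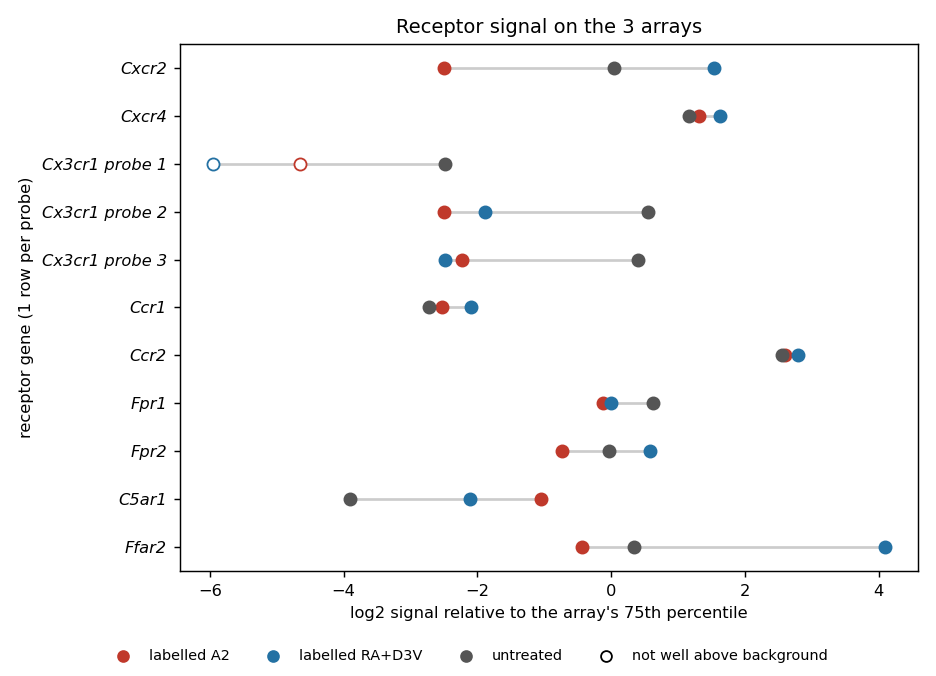
Log2 signal of each of the 11 receptor probes relative to the array's 75th percentile, on the A2-labelled array (red), the RA+D3V-labelled array (blue) and the untreated array (grey); open points were not well above background. Cxcr2 and Ffar2 have the untreated level between the treated ones, while Ccr2 keeps its 3 points between 2.55 and 2.79.

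The formyl peptide receptors Fpr1 and Fpr2 sense peptides of bacterial and mitochondrial origin, and Fpr2 also binds annexin and serum amyloid proteins. Fpr2 had log2 levels of -0.73 on the A2-labelled array, 0.58 on the RA+D3V-labelled array and -0.04 on the untreated array. The log2 difference was -0.69 ± 0.21 for A2 minus untreated, 0.62 ± 0.21 for RA+D3V minus untreated and -1.31 ± 0.21 for A2 minus RA+D3V (2.48-fold lower). As with Cxcr2, the untreated level lay between the treated ones. Fpr1 had log2 levels of -0.13 on the A2-labelled array, -0.01 on the RA+D3V-labelled array and 0.63 on the untreated array. Its log2 differences from untreated cells were -0.76 ± 0.21 and -0.64 ± 0.21, so both treated arrays were lower but within 2-fold. The treated arrays differed from each other by -0.12 ± 0.21, less than the SD between the control sources. The probes lie on chr17, at chr17:18013609-18013668 on the reverse strand (Fpr1) and chr17:18030540-18030599 on the forward strand (Fpr2).

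C5ar1, the receptor for the complement fragment C5a that recruits and activates neutrophils and macrophages, was higher on both treated arrays. Its log2 level was -1.05 on the A2-labelled array, -2.11 on the RA+D3V-labelled array and -3.90 on the untreated array, from signals of 133, 67.3 and 23.9. The log2 difference from untreated cells was 2.86 ± 0.32 for A2 (7.25-fold higher) and 1.79 ± 0.32 for RA+D3V (3.46-fold higher), the 153rd highest of 17280 genes and the 299th highest of 17281. The A2-labelled array exceeded the RA+D3V-labelled array by 1.07 ± 0.22 (2.09-fold). The untreated signal lies close to 18.9, the dimmest signal still well above background on that array, so the folds rest on a dim spot. With normexp the differences were 1.57, 0.93 and 0.64, and those for RA+D3V minus untreated and A2 minus RA+D3V no longer reached 2-fold. The offset of 50 in that setting exceeds the untreated signal of 23.9, so some shrinkage was built in.

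Ffar2, a receptor for acetate, propionate and butyrate that guides neutrophils, had the largest difference of the 9 receptors. Its log2 level was -0.44 on the A2-labelled array, 4.09 on the RA+D3V-labelled array and 0.34 on the untreated array, from signals of 202, 4940 and 454. The high value was thus that of the RA+D3V-labelled array alone. The log2 difference was 3.75 ± 0.20 for RA+D3V minus untreated (13.4-fold higher), the 18th highest of 17281 genes, and -0.78 ± 0.21 for A2 minus untreated. For A2 minus RA+D3V it was -4.53 ± 0.21 (23.1-fold lower), the 8th lowest of 17631 genes. The control sources differed by 0.47 for this gene, and within the value table the differences from untreated cells were 3.33 for RA+D3V and -1.24 for A2, the second then past 2-fold.

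The genes most like Cxcr2 and Ffar2 in their differences were looked up next. Likeness was taken as the distance between genes over the 2 log2 differences from untreated cells, so it rests on 3 arrays and on shared untreated values. It was sought among 8429 protein-coding genes measured on all 3 arrays and brighter than the median of detected probes on any array. Predicted genes, clones, antigen receptor segments and olfactory receptors were left out. Nearest to Cxcr2 were Gpr85, an orphan receptor gene (distance 0.24; -2.37 for A2 and 1.65 for RA+D3V), Dmkn (0.46; -2.62 and 1.04) and S100a4, a calcium-binding protein (0.53; -3.00 and 1.75). Nearest to Ffar2 were Ifitm1, an interferon-induced membrane protein (distance 0.19; -0.65 for A2 and 3.61 for RA+D3V), Gpr162 (0.43; -1.15 and 3.52) and the integrin gene Itgb3 (1.02; -0.27 and 2.86). Within a distance of 0.5 there were 2 genes for Cxcr2 and 2 for Ffar2. Both receptors lie at the edge of the differences, where few genes lie in any case. Genes equally far out were not counted for comparison, so no rarity is read from these numbers.

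With the same limit, Cx3cr1 and C5ar1 had 4 and 26 genes within 0.5. Nearest to C5ar1 were the lysosomal protease gene Ctsd (distance 0.11; 2.88 for A2 and 1.68 for RA+D3V), the glycolytic enzyme gene Pfkl (0.15; 2.74 and 1.89) and the haem oxygenase gene Hmox1 (0.23; 2.74 and 1.59). Nearest to Cx3cr1 were Rdm1 (distance 0.38; -2.70 for A2 and -2.30 for RA+D3V), Elavl4 (0.39; -2.71 and -2.23) and Cavin1 (0.48; -3.53 and -2.45). The Elavl4 probe has a run of 11 alternating G and T, among the long runs described above. Of 50 genes lower by at least 4-fold on each treated array, 30 had a probe with a run of 8 or more and 20, Cx3cr1 among them, a shorter one.

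The wider family was listed as 53 receptors for chemokines, other chemoattractants and fatty acids, of which 52 had a probe and 18 of these were below background on all 3 arrays. Leaving out the 9 receptors, 43 had a probe. Of 23 measured for A2 minus untreated, 4 were at least 2-fold higher and 6 at least 2-fold lower, with a median log2 difference of -0.07. Of 22 measured for RA+D3V minus untreated, 5 were at least 2-fold higher and 1 lower, with a median of 0.11. Of 22 measured for A2 minus RA+D3V, 3 were at least 2-fold higher and 10 lower, with a median of -0.71. Over all genes the higher and lower shares were 7.92% and 6.46%, 7.81% and 5.04%, and 3.77% and 4.04% in the same order. Among the receptors lower for A2 minus RA+D3V were C3ar1 (-1.32), Ccr6 (-1.31), Hcar2 (-1.19), Ccr4 (-1.18), Gpr84 (-1.16), Cxcr6 (-1.15), Gpr183 (-1.14), S1pr3 (-1.10) and Ccr7 (-1.02). The higher ones were Ccrl2 (3.88), Cysltr1 (1.17) and Ptafr (1.15). Ccr4, Ccr6 and Cxcr6 were dim on the A2-labelled array, with log2 levels of -3.86, -3.33 and -3.20. Within the value table Ccr4 (-0.88) and Cxcr6 (-0.91) stayed within 2-fold, and a second Hcar2 probe gave -0.48.

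Among the other chemokine receptors, Ccrl2, a chemerin-binding receptor that does not signal like the others, had log2 levels of 2.32 on the A2-labelled array, -1.56 on the RA+D3V-labelled array and -1.45 on the untreated array. Its log2 difference from untreated cells was 3.77 for A2 and -0.11 for RA+D3V, so it was high on the A2-labelled array alone. Lower on the A2-labelled array were Ccr7, which guides cells to lymph nodes (-1.70 for A2 and -0.67 for RA+D3V), and Cxcr6 (-1.43 and -0.28). Cxcr3, a receptor of activated T cells, was lower on both (-1.20 and -1.81), and Ccr4 was higher on the RA+D3V-labelled array (0.01 and 1.19), though by 0.96 within the value table. Cxcr5 was at least 2.62-fold lower on the RA+D3V-labelled array. Cxcr1, Ccr3, Ccr9, Ccr10, Xcr1 and Ackr1 to Ackr4 were below background on all 3 arrays.

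Markers of T and NK cells, which carry several of these receptors, were measured beside them. Of 10 such markers, 6 were measured for A2 minus untreated, with 3 at least 2-fold lower and 0 higher, and 5 for RA+D3V minus untreated, with 2 lower and 0 higher. Among all genes, 6.46% were lower and 7.92% higher for A2, and 5.04% and 7.81% for RA+D3V. The log2 differences were -1.86 for A2 and -1.55 for RA+D3V at Cd3d, and -1.81 and -1.89 at Cd2. By their brightest probes Cd3e (-0.25 and -0.23), Cd4 (0.34 and 0.28) and Nkg7 (0.22 and -0.56) stayed within 2-fold. A second Nkg7 probe gave -0.21 and -1.36. Gzma had -2.09 for A2 and was at least 6.18-fold lower for RA+D3V, and Cd3g was at least 3.31-fold lower for A2 and at least 2.40-fold lower for RA+D3V. Cd8a, Klrb1c and Ncr1 were below background on all 3 arrays, and the summed linear level was 19.9 on the A2-labelled array, 14.8 on the RA+D3V-labelled array and 20.0 on the untreated array. Nkg7 was the brightest of the list, with log2 levels of 3.62, 2.84 and 3.40 in that order, and weighs most in the sum. The part of such cells in the receptor values was not tested. In bulk RNA, fewer cells of a type and less RNA per cell cannot be told apart.

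Receptors for other chemoattractants formed a further list. Of 13 measured, the 3 described above included, 4 were at least 2-fold higher and 2 lower for A2 minus untreated, and 5 higher and 0 lower for RA+D3V minus untreated. The higher and lower shares of all genes were 7.92% and 6.46% for A2, and 7.81% and 5.04% for RA+D3V. C3ar1, the receptor for the complement fragment C3a, had log2 differences from untreated cells of 0.46 for A2 and 1.78 for RA+D3V. It was highest on the RA+D3V-labelled array, whereas C5ar1 was highest on the A2-labelled array. Cysltr1, a leukotriene receptor, had differences of 2.35 for A2 and 1.17 for RA+D3V. A second Cysltr1 probe gave 1.81 and 0.68, the latter within 2-fold. Ltb4r2 had 1.93 and 1.91, but 0.56 and 0.44 within the value table. Ltb4r1, a leukotriene receptor, had 0.59 and 1.02, the second 0.92 within the value table. Cmklr1, the chemerin receptor, was above background on the A2-labelled array alone, at least 2.49-fold higher than in untreated cells. Ptafr, the receptor for platelet-activating factor, had 1.15 for A2 and 0.00 for RA+D3V. The sphingosine phosphate receptor S1pr3 had -1.90 and -0.80, and Gpr183, an oxysterol receptor, -1.63 and -0.49.

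Of the fatty acid receptor list, Ffar3, the other short-chain fatty acid receptor, had log2 differences from untreated cells of -0.07 for A2 and 0.43 for RA+D3V. It therefore did not share the size of the Ffar2 difference on the RA+D3V-labelled array. Hcar2, the niacin and hydroxybutyrate receptor, had -0.83 and 0.36, and Gpr84, a receptor for medium-chain fatty acids, -0.77 and 0.40. Ffar1, Ffar4 and Hcar1 were below background on all 3 arrays.

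**Figure D3:**
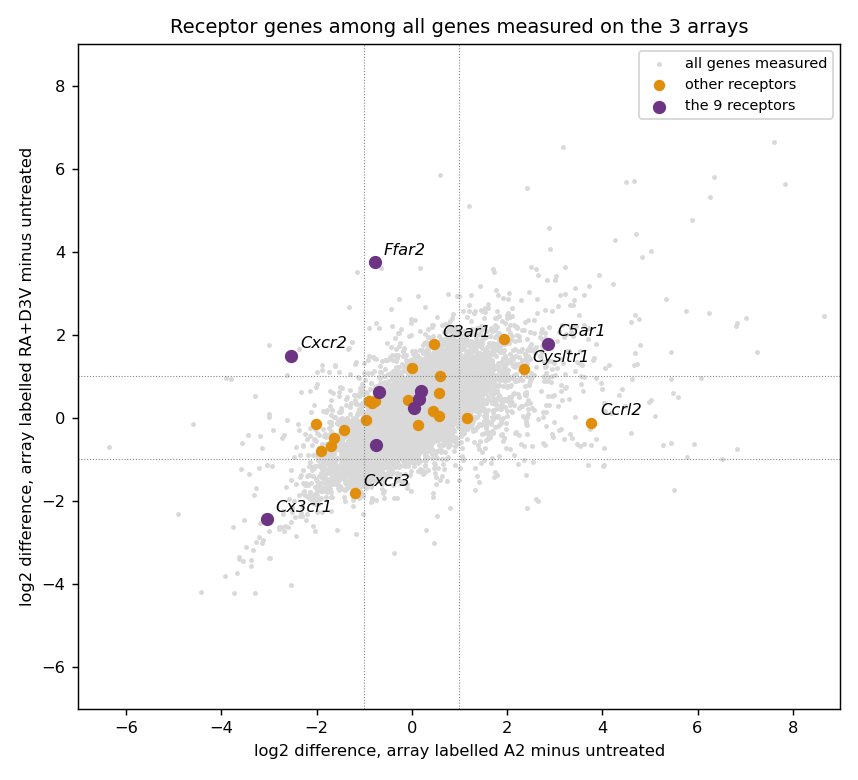
Log2 difference from untreated cells on the A2-labelled array (horizontal) against the RA+D3V-labelled array (vertical) for 17005 genes measured on all 3 arrays (grey), the 9 receptors (purple) and 22 other receptors (orange); dotted lines mark 2-fold. Both axes share the untreated array; Cxcr2 and Ffar2 lie at the upper left, C5ar1 at the upper right and Cx3cr1 at the lower left.

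Ligands of the receptors were also read on the arrays. Of 19 with a probe, 13 were measured for A2 minus untreated, with 7 at least 2-fold higher and 1 lower, and 13 for RA+D3V minus untreated, also with 7 higher and 1 lower. Among all genes, 7.92% were higher and 6.46% lower for A2, and 7.81% and 5.04% for RA+D3V. The medians of the listed ligands were 1.14 and 1.28. These genes were listed for the receptors with earlier results of the same data known.

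The Cxcr2 ligands Ppbp and Cxcl3 were below background on the untreated array. Ppbp was at least 148-fold higher on the A2-labelled array and at least 43.3-fold higher on the RA+D3V-labelled array, and Cxcl3 at least 28.7-fold and at least 4.51-fold higher. Within the value table the log2 differences of Ppbp were 6.14 and 4.38, both smaller than these bounds, which hold for the scanner signals. Both were higher on the A2-labelled array than on the RA+D3V-labelled array, by 1.77 (Ppbp) and 2.67 (Cxcl3) on the log2 scale, while Cxcr2 itself was lower there. Cxcl2 had log2 differences from untreated cells of 0.37 for A2 and -0.11 for RA+D3V, Cxcl1 was above background on the untreated array alone, and Cxcl5 on none. Within the value table Cxcl2 had 1.02, past 2-fold, and 0.42, of the other sign. Ppbp is also a platelet gene: of 6 megakaryocyte markers 3 were measured, with 2 at least 2-fold higher for A2 and 3 for RA+D3V, and the summed linear level of the 6, Ppbp among them, was 19.1 on the A2-labelled array, 25.0 on the RA+D3V-labelled array and 1.04 on the untreated array. Among all genes, 7.92% were at least 2-fold higher for A2 and 7.81% for RA+D3V. The log2 differences from untreated cells were 4.50 for A2 and 5.68 for RA+D3V at the chemokine gene Pf4, 3.70 and 1.91 at Vwf, and -0.27 and 2.86 at Itgb3. The defining markers Itga2b and Gp1bb were below background on all 3 arrays.

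Among ligands measured on all 3 arrays, those of Ccr1 and Ccr2 gave the largest differences from untreated cells. The log2 difference was 7.24 for A2 and 1.59 for RA+D3V at Ccl6, 4.13 and 1.28 at Ccl9, and 2.98 and 1.33 at Ccl3, all ligands of Ccr1. At the Ccr2 ligands it was 4.67 and 5.71 for Ccl2 and 2.43 and 5.53 for Ccl12, and at Ccl7, a ligand of both, 3.17 and 6.53. Ccl5 was lower, at -1.01 and -1.09. Ccr1 and Ccr2 themselves stayed within 2-fold.

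For the remaining receptors, the Cxcr4 ligand Cxcl12 was below background on all 3 arrays and Mif had log2 differences of 1.14 for A2 and 0.66 for RA+D3V. Fractalkine, Cx3cl1, had -0.97 and -0.28. Of the Fpr2 ligands, Saa3 had -0.27 and 2.04, Anxa1 -0.17 and 0.66, and Camp -0.33 and 0.11. Saa3 was thus past 2-fold on the RA+D3V-labelled array, while Anxa1, Camp and Fpr2 itself (0.62) stayed within 2-fold there. Hc, the source of C5a, was above background on the A2-labelled array alone, at a dim log2 level of -3.53. Its bound there was only 1.66-fold higher than in untreated cells, and its log2 difference within the value table was 0.41.

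**Figure D4:**
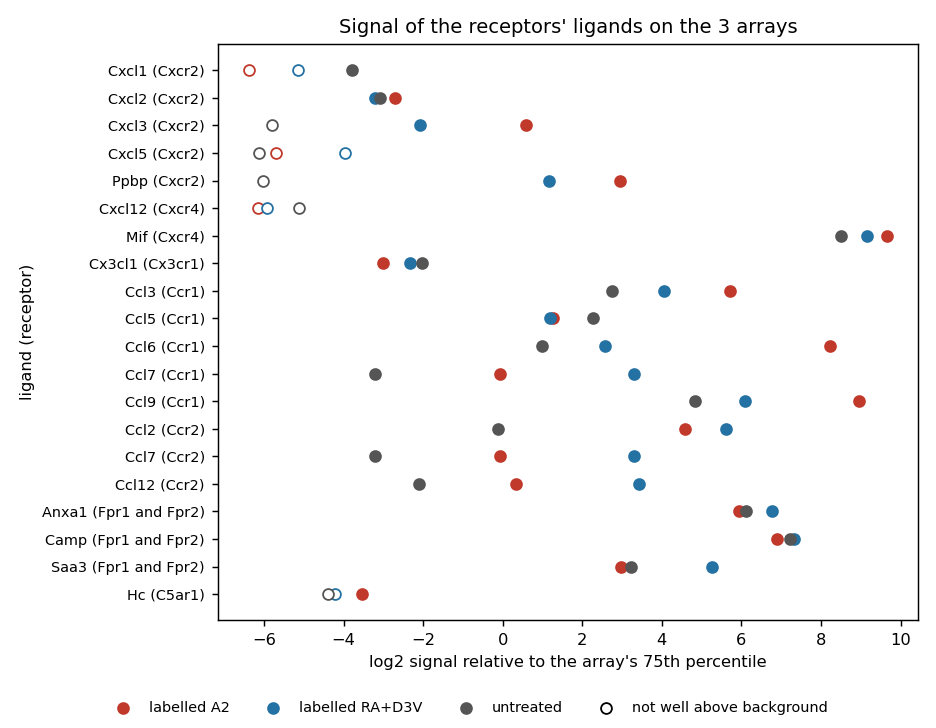
Log2 signal of each ligand, with its receptor in brackets, relative to the array's 75th percentile on the A2-labelled array (red), the RA+D3V-labelled array (blue) and the untreated array (grey); open points were not well above background. Ccl7 appears in 2 lines since it binds both Ccr1 and Ccr2, and the Ccl6 and Ccl9 points labelled A2 lie to the right of the other arrays' points.

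Myeloid markers were read beside these genes. Of 13 neutrophil markers, all measured, 3 were at least 2-fold higher and 1 lower for A2 minus untreated, and 2 higher and 1 lower for RA+D3V minus untreated. Among all genes, 7.92% were higher and 6.46% lower for A2, and 7.81% and 5.04% for RA+D3V. Of the 13 neutrophil markers, 8 were above 0 for A2 and 10 for RA+D3V, with median log2 differences of 0.08 and 0.30. The protease genes Mmp8 (5.02 for A2 and 4.01 for RA+D3V) and Mmp9 (3.73 and 2.18) were higher, Ly6g had 1.90 and 0.38, and the primary granule gene Mpo -2.22 and -1.57. The log2 level of Mpo was 7.17 on the A2-labelled array, 7.82 on the RA+D3V-labelled array and 9.39 on the untreated array, where it was the highest of the list. The summed linear level was 1190 on the A2-labelled array, 1490 on the RA+D3V-labelled array and 1590 on the untreated array. Of 10 monocyte and macrophage markers measured, 6 were higher and 1 lower for A2, and 7 higher and 1 lower for RA+D3V. Among them were Itgam (2.37 and 2.31), C1qb (2.04 and 3.02) and C1qc (1.72 and 3.50) as higher and Cd14 (-1.24 and -1.25) as lower. Within the value table Cd14 had -0.97 and -0.95, and so stayed within 2-fold. Mrc1 and Mertk were below background on the untreated array. Mrc1 was at least 3.22-fold higher for A2 and 95.7-fold for RA+D3V, and Mertk at least 27.1-fold and 17.3-fold. Within the value table the Mrc1 log2 differences were 1.48 and 6.31, both smaller than these bounds. The summed levels were 607, 734 and 669 on the A2-labelled, RA+D3V-labelled and untreated arrays. Ly6c1 (-0.94 and -0.38) was the brightest of the list on each array and weighs most in these sums. Cx3cr1 is also a microglial gene: of 3 microglia markers, Tmem119 had log2 differences of 3.22 for A2 and 3.64 for RA+D3V, P2ry12 was above background on the A2-labelled array alone, and Sall1 was below background on all 3. The part of maturation or of other cell types in the receptor values was not tested.

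The 250 bases before the transcript start are shown for Cxcr2 and Ffar2, the receptors furthest apart between the treated arrays, and for Cx3cr1, lower on both. They are from RefSeq, build GRCm38.p6, at chr1:74153744-74153993 on the forward strand (Cxcr2), chr7:30823776-30824025 on the reverse strand (Ffar2, window 1 of 4 listed starts) and chr9:120068297-120068546 on the reverse strand (Cx3cr1). Capitals mark matches to AGGTCA (the hexamer read by retinoid and vitamin D receptors), to the hypoxia-type core ACGTG, to the PU.1-type core GAGGAA and to the C/EBP-type core TTNCNNAA, searched on both strands.
Cxcr2: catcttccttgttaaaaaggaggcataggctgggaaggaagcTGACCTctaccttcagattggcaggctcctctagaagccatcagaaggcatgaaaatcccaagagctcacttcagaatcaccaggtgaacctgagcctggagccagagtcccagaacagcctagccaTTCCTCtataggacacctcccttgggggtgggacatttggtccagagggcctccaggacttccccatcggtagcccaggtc
Ffar2: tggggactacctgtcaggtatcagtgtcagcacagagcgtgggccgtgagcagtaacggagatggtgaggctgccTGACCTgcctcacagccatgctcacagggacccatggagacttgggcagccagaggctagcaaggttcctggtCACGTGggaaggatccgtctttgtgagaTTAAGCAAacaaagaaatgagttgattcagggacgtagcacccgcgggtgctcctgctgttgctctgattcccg
Cx3cr1: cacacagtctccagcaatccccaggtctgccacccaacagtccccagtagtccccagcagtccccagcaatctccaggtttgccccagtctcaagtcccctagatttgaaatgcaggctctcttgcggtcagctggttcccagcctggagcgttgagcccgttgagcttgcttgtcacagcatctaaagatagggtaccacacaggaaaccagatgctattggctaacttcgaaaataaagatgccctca
AGGTCA occurs in its reverse form TGACCT in the Cxcr2 and Ffar2 windows, and in 14.0% of 32851 windows of that length. The Cxcr2 window also holds GAGGAA in reverse form (23.3% of windows). The Ffar2 window holds ACGTG on both strands of CACGTG, where the matches overlap (16.6% of windows), and TTNCNNAA in reverse form (36.8%). The windows before the other Ffar2 starts differ: window 2 holds TTNCNNAA alone, window 3 AGGTCA and GAGGAA, and window 4, which overlaps window 3, these and TTNCNNAA. ACGTG is in none of windows 2 to 4. The Cx3cr1 window holds none of these letters. A match is a description of the sequence and not a site shown to be bound.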

How the data were processed

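Total RNA of 3 samples was measured on 1-colour arrays after Cy3 labelling, 1 array per condition. Per the submitters' processing notes, the authors used Agilent Feature Extraction 11.5.1.1; the processed signal, per the file headers, is a background-corrected linear intensity not scaled between arrays. Flags mark spots as above background, saturated or uneven. In the value table that the authors deposited, values are linear intensities whose columns had been quantile normalized, as 99.9% of sorted entries were equal within 0.01%.

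Control spots and 25 uneven spots were left out, which left 55657 probes. Log2 of the deposited signal relative to each array's 75th percentile was computed, and spots of a probe were averaged. Names came from the RefSeq mouse table, GRCm38.p6, by accession (27646 probes), symbol (3400) or synonym (321), and 24290 probes kept the file's name. For 11169 genes with several probes the brightest by mean was used. A gene counted as measured where both arrays had its probe well above background, and called at 2-fold; a fold against a group below background is a bound, taken against the lowest signal well above background. With 1 array per condition there are no tests, and the scanner error covers the spot alone; the number of arrays limits the precision. Per the file headers 1 slide held all arrays, so no batch can be compared.

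All 9 receptors are named, and of each receptor, ligand and signalling list the genes past 2-fold and up to 5 at each end, except for an item that is not reported here; of the marker lists, examples were named after their values were seen. The receptors and the lists were chosen with earlier results of these data known. Alternatives were normexp background correction with an offset of 50 and quantile normalization in limma 3.58.1 (R 4.3.3), scaling to the median of detected probes, the mean over probes, other filters on dim probes, and the value table. Other steps used Python 3.11.15, pandas 2.3.3, numpy 2.4.6, scipy 1.17.1 and matplotlib 3.10.9, and were tested on simulated data.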

Additional observations from a re-analysis of the deposited data

Results flagged for a closer look

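By the scanner signals, Cxcr2 is the receptor whose treated arrays lie on opposite sides of the untreated array, each by more than 2-fold. It had -2.54 for A2 and 1.50 for RA+D3V, a log2 difference of -4.04 between them. Within the value table Ffar2 did so too, at -1.24 for A2 and 3.33 for RA+D3V. With 1 array per condition these differences were not tested.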

How the results depend on the processing

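Of 126 recomputed log2 differences of the 9 receptors, 107 moved by less than the SD between the control sources (0.258) and 19 by more. Of the 19, 13 were under normexp, 5 within the value table and 1 with the mean over probes (Cx3cr1, A2 minus RA+D3V, -0.18 in place of -0.61). The normexp setting adds an offset of 50 to every signal, which by itself shrinks differences of dim spots. The part of the offset was not separated from that of the background correction. Ccr2 for A2 minus untreated went from 0.05 to -0.00 with normexp, and no other difference changed sign. Quantile normalization and scaling to the median of detected probes moved 0 of 27 each past that SD. With normexp, 0 of 9 receptors were at least 2-fold higher for A2 minus RA+D3V, in place of 1, since C5ar1 was at 0.64. The other counts of receptors past 2-fold stayed within 1.5 times under each alternative run, though Ffar2 joined the lower ones for A2 within the value table (-1.24) and C5ar1 left the higher ones for RA+D3V under normexp (0.93). Over all genes, normexp gave 947 higher and 725 lower for A2 minus untreated, 745 and 533 for RA+D3V minus untreated, and 488 and 335 for A2 minus RA+D3V, where 59.3% of calls were higher in place of 48.3%; the cause was not tested. No alternative moved the median of all genes by over 0.1. Among the 9 receptors, dim spots limit Cxcr2 on the A2-labelled array, Cx3cr1 on both treated arrays, C5ar1 and Ccr1. No paired analysis was possible because each condition has 1 array.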

Other observations

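Genes that carry or end the receptors' signal were listed too, and 30 of 31 were measured. For A2 minus untreated, 7 were at least 2-fold higher and 2 lower, where 7.92% and 6.46% of all genes were, with a median log2 difference of 0.14. The kinase gene Grk5, which switches off active receptors, had 3.87 for A2 and -0.50 for RA+D3V, and the arrestin gene Arrb1, which takes receptors off the surface, had 2.51 and 1.77. Plcb2, a phospholipase downstream of G proteins, had 2.06 and 0.97, the GTPase gene Rac2 1.60 and 0.19, and its exchange factor gene Prex1 1.38 and 1.48. The G protein genes Gng2 and Gna15 had 1.28 and 1.64, and 1.17 and 0.51. Lower were Rgs18 (-1.74 and -0.10) and Rgs1 (-1.02 and -1.23), which shorten G protein signals. Rgs1 was dim, with a log2 level of -3.23 on the A2-labelled array. Within the value table it had -0.75, within 2-fold, and -1.13. For RA+D3V minus untreated, 3 were at least 2-fold higher and 1 lower, where 7.81% and 5.04% of all genes were, with a median of 0.18. The main inhibitory G protein gene of blood cells, Gnai2, had -0.00 for A2 and 0.28 for RA+D3V.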
